A study of Mus musculus with 4 samples.

Results

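Ribosomal protein genes encode the protein parts of the cytosolic ribosome, and 87 of the 27998 genes in the deposited tables were taken as members by their symbols alone. The symbol had to begin with Rpl or Rps followed by a digit, or be Rplp0, Rplp1, Rplp2 or Rpsa. Symbols with -ps, which mark pseudogenes, and the Rps6k kinases were left out. By symbol, 53 members belong to the large subunit and 34 to the small subunit. Rps19bp1 entered by its symbol only, since it encodes a protein that binds Rps19 and not a ribosomal protein. Some cytosolic ribosomal proteins carry other symbols, such as Fau and Gnb2l1 (also known as Rack1), and are described apart from the members. No expression value entered the choice of these genes, but they were chosen with earlier results of these data known.

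The cells were cardiac endothelial cells sorted as CD31+/CD45- from C57Bl6J mouse hearts on embryonic days E12 and E15 and postnatal day P2, or from adults aged 8 weeks. No genetic change or treatment was applied to any of the 4 groups. Cells of 37 E12, 48 E15, 21 P2 and 6 adult animals were pooled per stage, frozen, thawed and run as 1 droplet library per stage, so no stage had a replicate library and no test between animals was possible. After thawing, a dead cell removal kit was applied to E12 and E15, and live cells were sorted again at P2 and in the adult. Before sorting, tissue digestion also differed across birth. Embryonic hearts received Collagenase/Dispase only, whereas older hearts were treated with Collagenase II before that enzyme mix. Red blood cells were lysed in adult samples only. Stage, digestion, handling after thawing, depth and library can therefore not be told apart in any comparison between stages. All intervals below are exact and cover counting error only.

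The E12, E15, P2 and adult libraries kept 5732, 6062, 5884 and 4242 barcodes, with median depths of 1241, 1013, 4532 and 1510 unique molecular identifiers (UMIs, counts of single captured transcripts) per cell. Cells were placed in classes by marker UMIs. Cells were called endocardial (lining of the heart chambers) if Npr3 plus Tmem108 exceeded Fabp4 plus Cldn5 plus Aplnr. Cells were called coronary if the latter sum reached 2 and exceeded the former. The artery rule asked for 3 UMIs of Cxcl12, Glul, Alpl and Nebl together, and overlaps the other classes. In the same order of stages there were 1716, 2115, 1082 and 75 endocardial and 113, 1254, 4596 and 4077 coronary cells. Markers that the rules did not use followed both names when summed. The 8 endocardial markers (Cytl1, Nfatc1 and others) summed to 1601 to 2577 UMIs per 1000000 UMIs (CPM) in endocardial and 204 to 630 CPM in coronary cells. The 8 coronary markers (Car4, Rgcc and others) summed to 40 to 350 CPM in endocardial and 539 to 8205 CPM in coronary cells. At E12, Car4 and Timp4 had no UMI in the 113 coronary cells, while all 8 coronary markers were detected in the 1716 endocardial cells. A part of the cells of both classes also held markers of other cell types. Without such cells, 1143, 1797, 438 and 32 endocardial and 81, 1122, 3556 and 3752 coronary cells remained, in the order of the stages. At E12 and E15 the cells of the artery rule held markers of other cell types and are called by the rule only. Its 332 E12 cells held 442 CPM of 8 endothelial markers and 3454 CPM of 8 mesenchyme and fibroblast markers, and 274 of them were in no other class. Its 69 E15 cells held 1515 and 6821 CPM of the same lists. Artery markers that the rule did not use were higher in these cells, with 1091 CPM at E12, against 280 in coronary and 340 in endocardial cells, and 1542 CPM at E15, against 549 and 255. The 19 E15 cells that were also coronary held 3255 CPM of endothelial and 1720 CPM of artery markers. Of the cells of the artery rule, 679 of 711 at P2 were also coronary cells, as were 1859 of 1875 adult ones.

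The ribosome consists of a small subunit, which decodes the mRNA, and a large subunit, which joins the amino acids. Each subunit needs its proteins in matched amounts, and their genes are therefore known for moving together. Their transcripts typically begin with a run of C and T bases, the 5′ terminal oligopyrimidine (TOP) tract, through which mTORC1 signaling controls their translation, and they are among the most abundant mRNAs of growing and dividing cells.

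RefSeq promoter windows of 250 bases before to 50 bases after an annotated start (GRCm38.p6) were found for 66 of the 87 members. Within 20 bases before to 50 bases after the start, an unbroken run of at least 10 C or T bases on the sense strand was present in 42 of these 66 members (63.6%) and in 13.8% of all 27025 genes with a window. With a run of at least 8 bases the shares were 74.2% and 28.5%. The letters CTTTCC were found on the sense strand of the same stretch in 30.3% of members and 3.79% of all genes, and CTTTTCC in 10.6% and 0.981%. These 2 strings do not contain each other but both lie within C and T runs. Over the whole window and on either strand, CCGGAA was present in 54.5% of members and 16.7% of all genes, and AAGATGGC in 9.09% and 3.19%. The 30 bases around the longest C and T run are shown for 8 members because they include the genes that left the common course below (Rps12, Rps21, Rpl28, Rpl22l1 and Rpl7l1), the gene with the highest level (Rpl41) and genes nearest to the common course (Rpl37a and Rpl11). Capitals mark the longest run, and all sequences read 5′ to 3′ on the gene's own strand. The table held no window for Rpl3 or Rpl6l, and lists a further start for Rps21 that is not shown.
Rps12: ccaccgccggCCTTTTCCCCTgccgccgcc
Rps21: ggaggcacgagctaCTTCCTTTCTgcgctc
Rpl28: gcctctcgtgTCTCTCTTTCCgtctccggc
Rpl22l1: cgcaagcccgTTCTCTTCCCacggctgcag
Rpl7l1: gCCCggtgaggctgcgcaagcgcagtagct
Rpl41: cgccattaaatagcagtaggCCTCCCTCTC
Rpl37a: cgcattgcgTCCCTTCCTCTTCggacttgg
Rpl11: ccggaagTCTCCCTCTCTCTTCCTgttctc

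These windows lie at chr10:23787182-23787211 on the minus strand (Rps12), chr2:180257399-180257428 on the plus strand (Rps21), chr7:4792952-4792981 on the plus strand (Rpl28), chr3:28805499-28805528 on the plus strand (Rpl22l1), chr17:46782647-46782676 on the minus strand (Rpl7l1), chr10:128549119-128549148 on the minus strand (Rpl41), chr1:72711274-72711303 on the plus strand (Rpl37a) and chr4:136053358-136053387 on the minus strand (Rpl11). The run was 10 to 17 bases long in 7 of the 8 genes. Rpl7l1, an Rpl7 paralogue, was the exception, with a longest run of 3 bases. The Rpl41 run reached the edge of the searched stretch, so its 10 bases are a minimum. The members were spread over 19 chromosomes, and the median length of their longest transcript was 1059 bases against 2910 bases for other coding genes.

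Ribosomal protein transcripts made up close to 30% of all UMIs before birth, about 16% at P2, and less in adult coronary than in adult endocardial cells. In coronary cells, the share of UMIs that came from the 87 members was 31.8% at E12 and 29.7% at E15, and after birth 15.97% at P2 and 11.7% in adults. In endocardial cells the corresponding shares were 30.6%, 28.6%, 15.9% and 15.1%. The large step lay between E15 and P2 in both classes. The later share divided by the earlier share was 0.934 (95% interval 0.927 to 0.941) from E12 to E15, 0.538 (0.536 to 0.539) from E15 to P2 and 0.730 (0.728 to 0.732) from P2 to adult in coronary cells. In endocardial cells it was 0.933 (0.930 to 0.936), 0.557 (0.556 to 0.559) and 0.946 (0.935 to 0.957). Cells in none of the 3 classes had shares of 30.0%, 29.6%, 15.7% and 11.9%, so the step at birth was of a similar size in cells that no marker rule selected. Cells of the artery rule had shares of 31.0%, 29.2%, 14.9% and 10.7%.

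**Figure D1:**
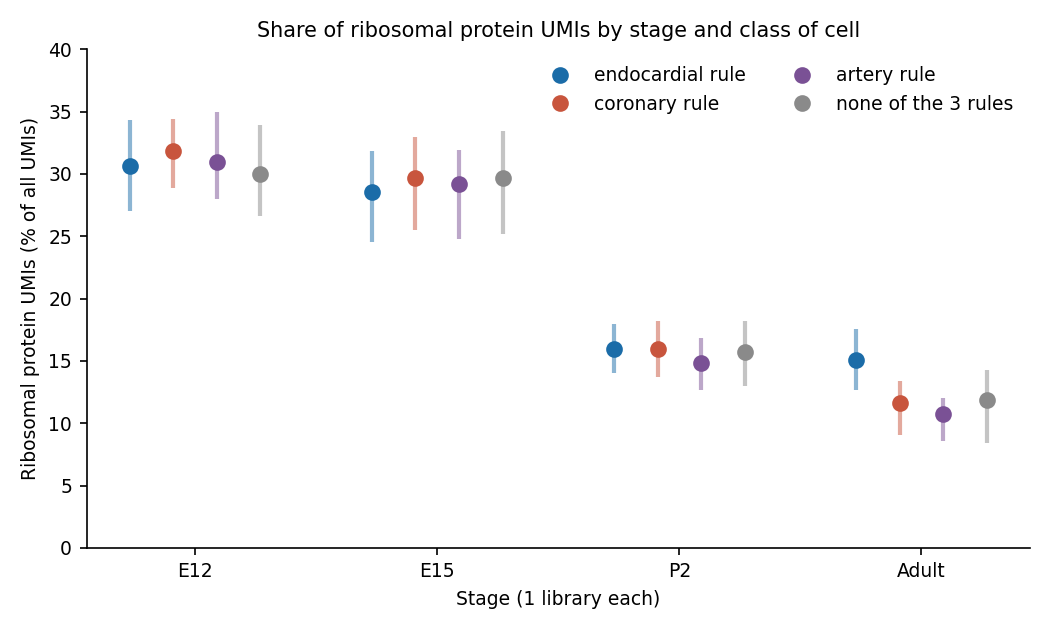
Percent of all UMIs that came from ribosomal protein genes, by stage (1 library each) and class of cell. Points give the share over the summed UMIs of a class and bars run from the 25th to the 75th percentile of its single cells. All 4 classes sit between 28.6% and 31.8% at E12 and E15, and between 14.9% and 15.97% at P2, and adult endocardial cells (15.1%) sit above the other adult classes.

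The share was lower at P2 than at E15, while the number of ribosomal protein UMIs per cell was higher. Coronary cells held means of 684 (E12), 398 (E15), 822 (P2) and 206 (adult) such UMIs, and endocardial cells 441, 330, 763 and 419. The P2 library was the deepest, and the median depth of its coronary cells was 4562 UMIs against 1170 at E15. The share is thus a statement about composition and not about the amount of ribosomal protein mRNA in a cell. Within cells of 2000 to 4000 UMIs, a window set after the values had been seen, coronary shares were 32.0%, 30.0%, 16.3% and 11.9% and endocardial shares 29.7%, 28.6%, 16.5% and 16.02%. In that window the step from E15 to P2 was 0.543 and 0.575, close to the ratios over all cells. The immediate-early genes (8 genes such as Fos and Jun, which respond to tissue dissociation) moved with the same step: they summed to 523, 933, 4776 and 6771 CPM in coronary cells and 1046, 1179, 2121 and 1566 CPM in endocardial cells. Mitochondrially encoded genes made up 2.51%, 2.29%, 3.58% and 4.67% of coronary UMIs. Between the lowest and the highest tertile of coronary cells by immediate-early share, the ribosomal protein share ran from 29.7% to 29.6% at E15, was 15.96% and 15.97% at P2, and ran from 12.01% to 11.44% in the adult. The part of dissociation in the step between libraries was not tested.

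Before birth and at P2, cells with division markers had lower shares than cells without them at the same depth. Among coronary cells of 1000 to 2000 UMIs, those with at least 2 UMIs of 8 cell division markers had a ribosomal protein share of 28.4% (28.3 to 28.6, 167 cells) at E15, and those with none had 31.0% (30.9 to 31.2, 307 cells). In endocardial cells of the same depth the shares were 24.2% (97 cells) and 30.1% (701 cells) at E15, and 27.8% (178 cells) and 32.4% (669 cells) at E12. At P2, coronary cells of 4000 to 6000 UMIs showed 14.9% (283 cells) with and 16.6% (929 cells) without division markers. The order was opposite in the adult, where the 50 coronary cells with at least 2 division UMIs had 13.7% (13.6 to 13.9) and the 3959 with none had 11.6%, at median depths of 2902 and 1473 UMIs. Cells with no division UMI gave a ratio of 0.544 from E15 to P2 in coronary and 0.551 in endocardial cells.

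At the level of single genes, the members moved as a group across birth. The rule for a call was a CPM ratio of at least 1.5 over genes with at least 50 UMIs in both groups together, and 84 members passed this filter in every comparison of coronary and endocardial cells. From E15 to P2, 67 of the 84 were called lower in coronary cells, where 9.11% of all genes over the filter were called lower, and 68 of the 84 in endocardial cells, where 9.66% were. No member was called higher, where 36.3% of all genes in coronary and 29.6% in endocardial cells were. The median log2 ratio of the members was -0.92 in coronary and -0.84 in endocardial cells, against 0.35 and 0.26 for all genes over the filter, so a gene whose CPM stayed level also lay below the bulk of genes. The large and small subunits moved alike, with medians of -0.93 and -0.90 in coronary and -0.85 and -0.83 in endocardial cells.

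**Figure D2:**
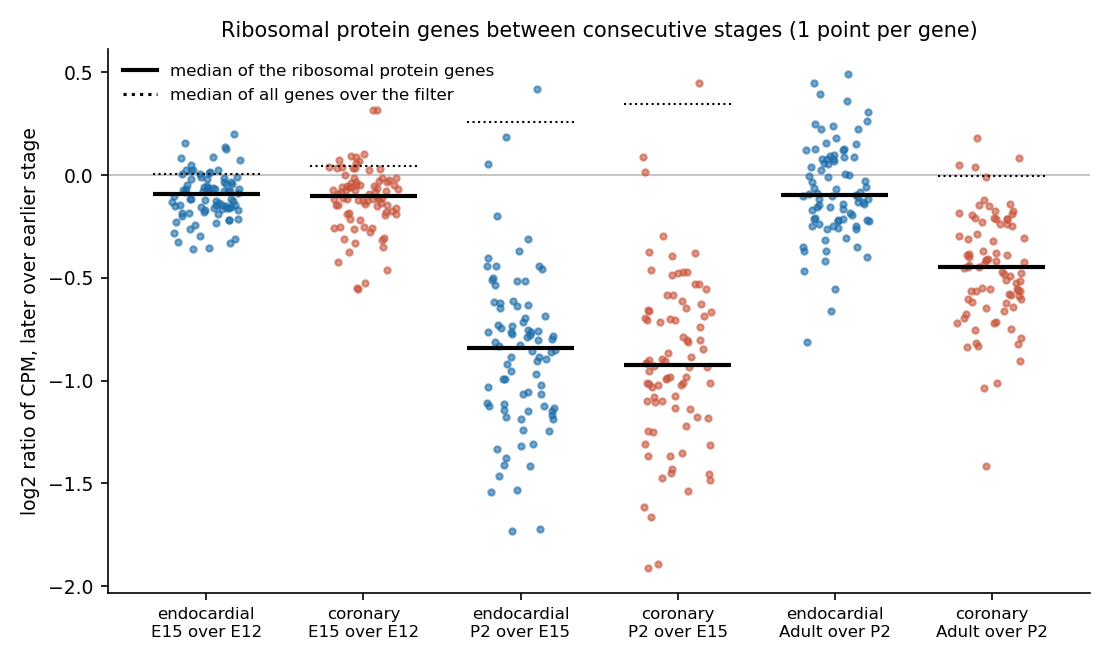
Log2 ratio of CPM between consecutive stages for each of the 84 ribosomal protein genes over the filter (points, scattered sideways for visibility), in endocardial (blue) and coronary (red) cells; solid bars give their median and dotted bars the median of all genes over the filter. From E15 to P2 the medians of the members are -0.84 and -0.92 while those of all genes are 0.26 and 0.35, and from P2 to adult only the coronary median (-0.45) lies well below 0.

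The other steps were smaller. From E12 to E15 no member was called in either direction in either class, where 30.3% of all genes in coronary and 18.1% in endocardial cells were called. The median log2 ratio of the members was -0.10 and -0.09. E12 coronary cells held 242947 UMIs in all, against 1680024 at E15. Genes near the filter therefore had few E12 UMIs and ratios with wide counting error, while most members had far more UMIs. The shares of all genes called were not matched for level. From P2 to adult, 24 of 84 members were called lower in coronary cells (21% of all genes were) and 2 of 84 in endocardial cells (27.3% of all genes were), with medians of -0.45 and -0.10. The coronary count was close to the share of all genes called and the endocardial count was below it. Adult endocardial cells held 208774 UMIs in all, against 5181262 at P2, so the same limit holds there. Of the member ratios, 80 of 84 lay below 1 in coronary and 53 of 84 in endocardial cells. All genes over the filter had medians of -0.003 and -0.09. The endocardial members thus lay at the level of all genes, and the coronary members below it.

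Of the 87 members, 3 were nearly silent. Rpl10l, a paralogue of Rpl10 known from the testis, had no UMI in any kept barcode. Rpl3l, the striated muscle paralogue of Rpl3, had 10 UMIs and Rpl39l, a paralogue of Rpl39 known from the testis, had 50 UMIs over all 4 libraries. The highest levels were those of Rpl41, Rps29 and Rps27. These are counts of 3′ ends, which do not scale with transcript length, but levels of genes with near-identical copies also depend on how reads were shared among the copies. Rpl41, which encodes a very short peptide of the large subunit, had 14538, 13466, 5937 and 4429 CPM in coronary cells and 13248, 11057, 4860 and 4517 CPM in endocardial cells, in the order of the stages. Rps29, a zinc-binding protein of the small subunit, had 8788, 8706, 3668 and 3801 CPM in coronary cells, the adult level being no lower than that at P2. Rps27 had 5651, 7049, 4319 and 3790 CPM in coronary and 7605, 8322, 5833 and 6208 CPM in endocardial cells. Rpl37a lay nearest to the median of the members over all 6 steps and stands for the common course, with 7533, 7140, 3749 and 2816 CPM in coronary and 6903, 6942, 3975 and 3722 CPM in endocardial cells. Rpl11, which binds Mdm2 when ribosome assembly is disturbed, and Rpl35 were next nearest, within 0.11 and 0.13 of the median on the log2 scale at every step.

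A set of 7 members left the common course from E15 to P2 in both classes, by at least 1.5-fold from the median of the members with an interval that excluded it: Rpl3, Rpl22l1 and Rpl7l1 above it, and Rps12, Rps21, Rpl28 and Rpl6l below it. The classes come from the same 2 libraries, so the endocardial value is not a separate measurement of the stage. Rpl3, a large subunit protein next to the catalytic center, had 2219, 2264, 2406 and 1359 CPM in coronary and 2399, 2206, 2290 and 1969 CPM in endocardial cells. Its ratio from E15 to P2 was 1.06 (1.03 to 1.10) in coronary and 1.04 (1.01 to 1.07) in endocardial cells, where the members as a group were at 0.527 and 0.558. Rpl22l1, the paralogue of the RNA-binding protein Rpl22, had 1646, 1121, 1132 and 424 CPM in coronary and 1195, 936, 1066 and 891 CPM in endocardial cells. Its ratio from E15 to P2 was 1.01 (0.963 to 1.06) and 1.14 (1.08 to 1.20). Rpl7l1 had 86.4, 60.1, 82.0 and 81.5 CPM in coronary and 57.4, 58.5, 78.2 and 67.1 CPM in endocardial cells, on 21 UMIs in E12 coronary and 14 in adult endocardial cells, and its ratios were 1.36 (1.12 to 1.68) and 1.34 (1.10 to 1.63). Of these 3 genes none was called higher by the 1.5-fold rule, since their departure is from the group and not from 1.

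**Figure D3:**
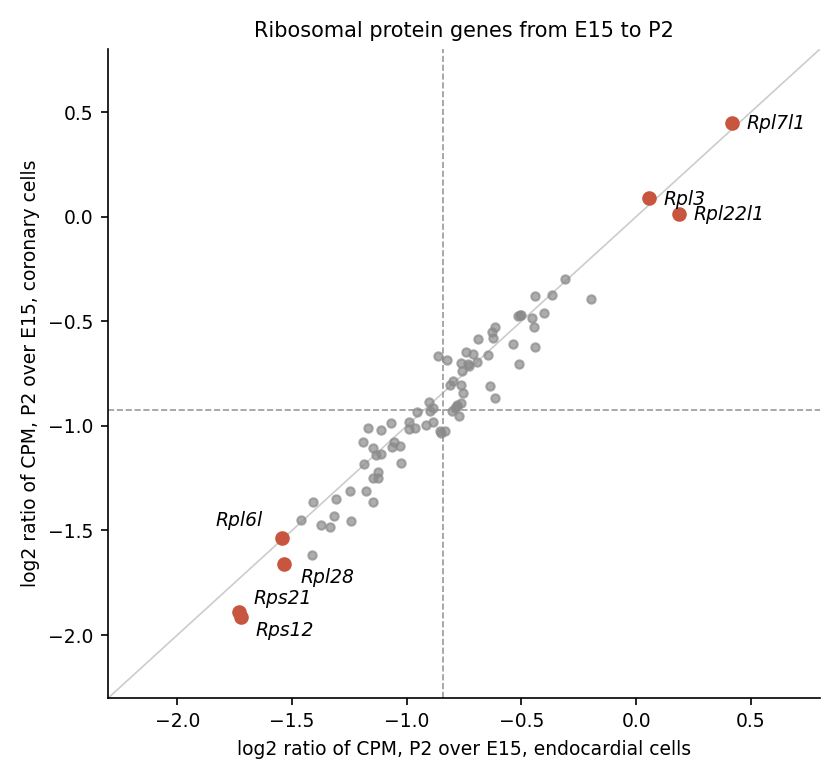
Log2 ratio of CPM from E15 to P2 for each ribosomal protein gene over the filter in endocardial (x axis) and coronary cells (y axis), with dashed lines at the medians of the members (-0.84 and -0.92) and a gray line where both are equal. Red points are the 7 genes that left the common course in both classes: Rpl7l1, Rpl3 and Rpl22l1 at or above 0, and Rpl28, Rpl6l, Rps21 and Rps12 between -1.53 and -1.91.

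Rps12, a small subunit protein, had 3219, 3118, 828 and 714 CPM in coronary and 3131, 2866, 869 and 867 CPM in endocardial cells. Its ratio from E15 to P2 was 0.266 (0.258 to 0.274) in coronary and 0.303 (0.292 to 0.315) in endocardial cells. Rps21, also of the small subunit, had 3071, 2851, 768 and 790 CPM in coronary and 2626, 2350, 709 and 968 CPM in endocardial cells, with ratios of 0.269 (0.261 to 0.278) and 0.301 (0.289 to 0.314). The E12 and E15 levels of both genes lay above all P2 and adult levels, and the adult levels lay close to or above those at P2. Rpl28, of the large subunit, had 3849, 3556, 1124 and 808 CPM in coronary and 3542, 3264, 1127 and 939 CPM in endocardial cells, with ratios of 0.316 (0.307 to 0.325) and 0.345 (0.334 to 0.357). Rpl6l, a copy of Rpl6 that the annotation lists as a processed pseudogene, had 687, 704, 242 and 275 CPM in coronary and 689, 733, 252 and 354 CPM in endocardial cells. It was the only gene to depart from the group in both classes from P2 to adult as well, then upward, with ratios of 1.13 (1.08 to 1.19) and 1.41 (1.10 to 1.78). Reads of Rpl6l and Rpl6 may be exchanged, and the 2 genes summed had ratios of 0.507 and 0.543 from E15 to P2, near the group. Rpl6 alone had 0.537 and 0.582, with 49030 UMIs in P2 coronary cells against 5732 of Rpl6l. The sum therefore follows Rpl6 and cannot show whether reads were exchanged. Rps14 passed the same distance above the group (0.814, 0.795 to 0.833) and Rpl12 below it (0.326, 0.314 to 0.339) in coronary cells. Rpl27 passed it below the group (0.363, 0.349 to 0.377) in endocardial cells. Each moved in the same direction in the other class, just inside that distance. At E15 and P2, Rps14 had 4787 and 3895 CPM in coronary and 5074 and 4091 CPM in endocardial cells. Rpl12 had 1839 and 600 CPM in coronary and 1593 and 598 CPM in endocardial cells. Rpl27 had 2414 and 883 CPM in coronary and 2351 and 853 CPM in endocardial cells. The difference between the classes was not tested, and these 3 genes were named after their values had been seen. Rpl3, Rpl22l1, Rpl7l1 and Rpl28 overlap genes on the opposite strand (Syngr1, Gm33051, Gm26904 and Ube2s), and the strand setting of the counting is not given in the sources used here. Such overlaps were not particular to these genes. Rpl35, near the common course, overlaps Wdr38 and Arpc5l, and Rpl31, Rpl32 and Rps18 also overlap genes on the opposite strand. None was listed for Rps12, Rps21 or Rpl6l. In cells of no class, Rpl22l1, Rpl3 and Rpl7l1 were again above and Rpl28, Rps12 and Rps21 below the group.

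**Figure D4:**
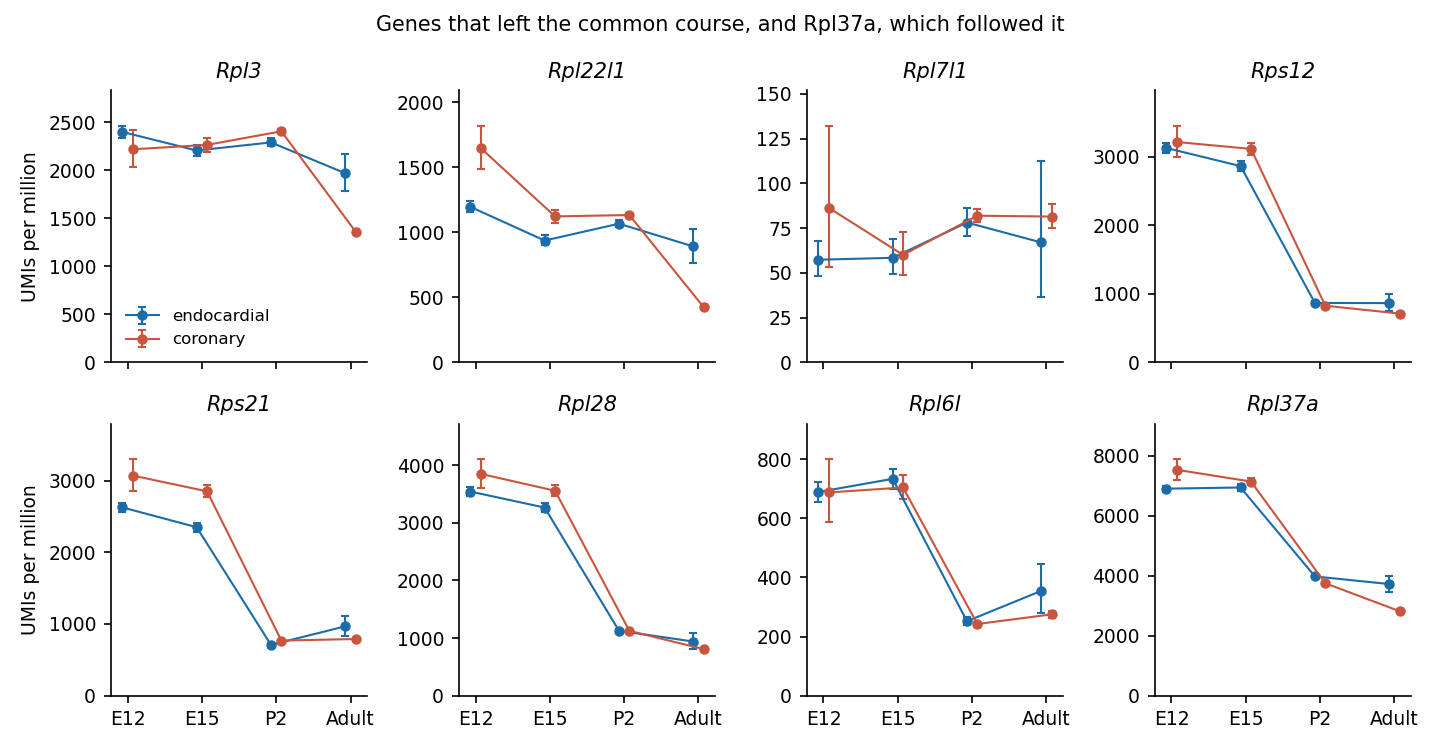
CPM by stage in endocardial (blue) and coronary (red) cells for the 7 genes that left the common course and for Rpl37a, with each y axis starting at 0 and bars giving exact 95% intervals for counting error. Rpl3, Rpl22l1 and Rpl7l1 are no lower at P2 than at E15, and Rps12, Rps21, Rpl28 and Rpl6l have lower ratios of P2 to E15 than Rpl37a.

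Transcripts counted under pseudogene symbols moved further than the members. The 16 pseudogene symbols that the rule left out summed to 7611, 6642, 1456 and 1946 CPM in coronary and 7221, 6314, 1436 and 2582 CPM in endocardial cells. From E15 to P2 all 12 of those over the filter in coronary cells and all 11 in endocardial cells were called lower, with medians of -2.08 and -2.13 on the log2 scale. Rpl23a-ps3, with the most UMIs over all libraries summed, had 1210, 1036, 388 and 582 CPM in coronary cells. Rps12-ps3 had 1667, 1644, 186 and 248 CPM in coronary cells, a ratio of 0.113 (0.108 to 0.119) from E15 to P2. Rps12 and Rps12-ps3 summed gave 0.213 in coronary and 0.245 in endocardial cells, so adding the copy moved Rps12 further from the group. Rps27rt, a near-identical copy of Rps27, had 1511, 1883, 673 and 712 CPM in coronary cells, a ratio of 0.357 (0.344 to 0.371), against 0.613 (0.601 to 0.625) for Rps27 and 0.559 for both summed. Whether reads were shared differently among copies in the 4 libraries was not tested. With the 16 pseudogenes added to the members, the share ratio from E15 to P2 was 0.531 and 0.550.

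The proteins of the ribosomal stalk, which recruits elongation factors, and Rpsa, the laminin receptor precursor of the small subunit, differed among themselves. Rplp0, the stalk base, had 4729, 4335, 3094 and 1534 CPM in coronary and 4456, 3964, 2892 and 1969 CPM in endocardial cells. Rplp1, which pairs with Rplp2 on that base, had 5479, 4433, 1737 and 1540 CPM in coronary and 4909, 4464, 1803 and 1902 CPM in endocardial cells. Rplp0 lay above its partners from E15 to P2 and below them from P2 to adult. Its coronary ratios were 0.714 (0.697 to 0.731) and 0.496 (0.486 to 0.506), those of Rplp1 were 0.392 (0.382 to 0.402) and 0.887 (0.868 to 0.905), and those of Rplp2 were 0.403 (0.393 to 0.414) and 0.808 (0.789 to 0.826). Rpsa had 2478, 2083, 988 and 528 CPM in coronary cells, with ratios of 0.474 (0.458 to 0.491) and 0.534 (0.516 to 0.553). None of the 4 reached a 1.5-fold distance from the group at these steps. Rpl7, the partner of Rpl7l1, had ratios of 0.668 and 0.650 from E15 to P2 in coronary and endocardial cells, and Rpl22 had 0.388 and 0.452, so in both pairs the paralogue had the higher ratio. Rps27l, a p53 target and paralogue of Rps27, had 815, 673, 511 and 434 CPM in coronary cells, and its ratio from E15 to P2 was 0.760 (0.715 to 0.809) there and 0.872 (0.815 to 0.933) in endocardial cells, the latter above the group by more than 1.5-fold. Rps19bp1, which entered by its symbol, had 91 CPM in E12 and 42 CPM in adult coronary cells. The remaining paralogues and partners stayed within that distance of the group from E15 to P2, where the coronary ratio was 0.534 for Rpl36a, 0.466 for Rpl36al, 0.455 for Rpl10, 0.371 for Rpl39 and 0.621 for Rps4x. From P2 to adult, Rpl39 (0.488, 0.476 to 0.500) and Rpl22l1 (0.375, 0.361 to 0.389) were below the group in coronary cells, and Rpl29 (0.571) in endocardial cells.

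The comparison of coronary with endocardial cells within a library is free of the difference in handling between stages. Coronary cells had slightly higher shares before birth, with ratios of 1.04 (1.03 to 1.05) at E12 and 1.04 (1.036 to 1.043) at E15. At P2 the ratio was 1.003 (1.0004 to 1.005), and 6 of 12 alternative ways of counting put it below 1, so no order of the classes is given there. In the adult the coronary share was lower by 22.6%, with a ratio of 0.774 (0.765 to 0.783). At E12, Rps2, Rpl36al and Rpl7l1, 3 of 84 members, were called higher in coronary cells (11.7% of all genes were). The Rpl7l1 call rested on 21 coronary UMIs. Its coronary level of 86.4 CPM had an interval of 53.5 to 132, which held the endocardial level of 57.4 CPM. At E15 and P2 no member was called in either direction (31.7% and 35.4% of all genes were). In the adult 15 of 84 were called lower (21.8% of all genes were), while 78 of 84 ratios lay below 1 and the median log2 ratio was -0.38 against 0.03 for all genes. The adult endocardial class had 75 cells with a median of 2609 UMIs, and the coronary class 4077 cells with a median of 1485. In cells of 2000 to 4000 UMIs the adult ratio was 0.744, on 38 endocardial cells. With the cells of the artery rule taken out of the coronary class it was 0.841, on 2218 coronary cells. Mesenchyme and fibroblast markers summed to 3444 CPM in adult endocardial and 705 CPM in adult coronary cells, with Tcf21, Col1a1 and Sox9 at 0 in the former. Without cells holding markers of other cell types the adult ratio was 0.778, on 32 endocardial cells. Immediate-early genes summed to 1566 and 6771 CPM in the same 2 classes, and their part in the difference was not tested.

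Few genes differed between the classes beyond the group. Rps2, of the small subunit, was higher in coronary cells at 3 stages, with 5170, 3750, 1992 and 1151 CPM against 3125, 2575, 1492 and 1456 CPM in endocardial cells. Its ratio was 1.65 (1.56 to 1.76) at E12 and 1.46 (1.41 to 1.51) at E15. In the adult Rps2 was lower in coronary cells, at 0.790 (0.705 to 0.889), near the median of the members at 0.770. Rpl36al was at 1375 CPM in E12 coronary and 835 CPM in E12 endocardial cells, a ratio of 1.65 (1.46 to 1.85). Rps27 was lower in coronary cells at all 4 stages, with ratios of 0.743, 0.847, 0.740 and 0.610. In the adult, Rpl22l1 was further below endocardial cells than the group, at 0.476 (0.411 to 0.555). Rpl29 went the other way, with 835 against 651 CPM, a ratio of 1.28 (1.08 to 1.53). Rps2 and Rpl29 were named after their values had been seen. No member departed from the group in the same direction in 2 stages.

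Among coronary cells, those of the artery rule had lower shares. At P2 the share was 14.9% in 679 cells of the artery rule and 16.2% in the 3917 other coronary cells, a ratio of 0.922 (0.919 to 0.924). In the adult it was 10.7% in 1859 and 12.7% in 2218 cells, a ratio of 0.847 (0.843 to 0.850). No member was called at P2 (18% of all genes were called in either direction) and none was called lower in the adult (6.69% of all genes were), but 79 of 84 ratios at P2 and 84 of 84 in the adult lay below 1. The shift was small and spread over the members, with medians of -0.12 and -0.25 on the log2 scale. All genes over the filter had medians of -0.02 at P2 and 0.008 in the adult. Cells of the artery rule were deeper, the P2 medians being 4831 and 4525 UMIs and the adult medians 1776 and 1264. In cells of 2000 to 4000 UMIs the P2 shares were 14.6% and 16.5% and the adult shares 10.9% and 13.5%, a larger difference than over all cells. In cells thinned to 500 UMIs, 143 P2 and 631 adult coronary cells met the artery rule. The ratio was then 0.885 at P2 and 0.868 in the adult, so the adult difference was smaller than over all cells. Other measures also differed between coronary cells with and without the artery rule at full depth. Immediate-early genes summed to 6325 against 4486 CPM at P2 and 6971 against 6554 CPM in the adult, and cell division markers to 588 against 949 CPM and 56.2 against 123 CPM. Mitochondrially encoded genes had P2 shares of 3.16% and 3.66% and adult shares of 4.28% and 5.09%. Their part in the difference was not tested.

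From E15 to P2, other lists of the translation machinery had medians closer to 0 than the members. All genes over the filter had medians of 0.35 in coronary and 0.26 in endocardial cells. A list with a median near 0 thus also lay below all genes. The ribosomal protein genes Fau and Gnb2l1 had ratios near those of the members. Fau, which encodes Rps30 fused to a ubiquitin-like protein, had 3383, 3778, 1865 and 1639 CPM in coronary cells. Gnb2l1, a scaffold protein on the small subunit, had 1161, 1067, 549 and 367 CPM there, and both genes were called lower from E15 to P2 in both classes. Of 16 other TOP mRNAs, 2 in coronary and 3 in endocardial cells were called lower, with medians of -0.24 and -0.23. Over all genes past the filter, 9.11% in coronary and 9.66% in endocardial cells were called lower. Eef1a1, the elongation factor that brings tRNAs, had 3795, 4134, 3149 and 2057 CPM in coronary cells, and Tpt1 had 2453, 2532, 1745 and 1787 CPM. Of 25 translation initiation factors, 3 were called lower and 7 higher in coronary cells and 1 and 3 in endocardial cells, with medians of 0.31 and 0.28. Their coronary share called lower was near the 9.11% of all genes, and their shares called higher were below the 36.3% and 29.6% of all genes. Eif1 had 1943, 1965, 2193 and 2565 CPM and the helicase Eif4a1 663, 657, 1278 and 605 CPM in coronary cells. Of 30 ribosome biogenesis factors, 4 were called lower (9.11% of all genes were) and 3 higher (36.3% were) in coronary cells, with a median of 0.09. The nucleolar protein Ncl had 803, 385, 398 and 230 CPM and Nop10, a part of the box H/ACA particles that modify ribosomal RNA, 745, 427, 303 and 225 CPM in coronary cells. The 77 mitochondrial ribosomal proteins, which serve a separate ribosome, had medians of -0.16 and -0.03. In coronary cells 2 of the 76 over the filter were called lower, a share below the 9.11% of all genes. Their leading genes Mrps21 and Mrpl52 had 285 and 296 CPM at E15 and 218 and 216 CPM at P2. Other coding genes with a longest transcript of up to 1000 bases had medians of -0.16 and -0.08. Of these, 101 of 420 in coronary and 78 of 361 in endocardial cells were called lower. Both shares lay above the 9.11% and 9.66% of all genes. The part of transcript length in the step was not tested.

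**Figure D5:**
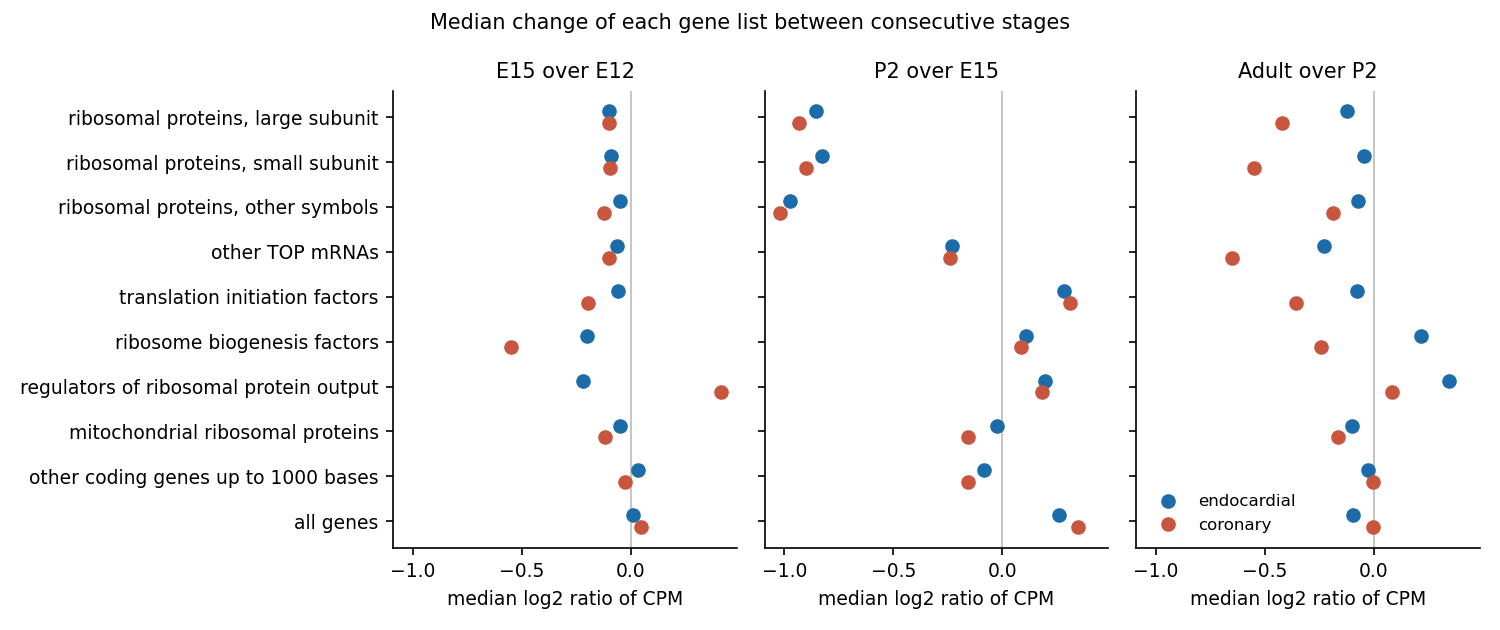
Median log2 ratio of CPM of each gene list over its genes past the filter, in endocardial (blue) and coronary (red) cells, for the 3 steps between consecutive stages. From E15 to P2 the ribosomal proteins of both subunits and those under other symbols lie between -0.83 and -1.02, and every other list, all genes included, lies between -0.24 and 0.35.

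From P2 to adult, 10 of 16 other TOP mRNAs, 8 of 25 initiation factors and 7 of 30 biogenesis factors were called lower in coronary cells, where 21% of all genes were, with medians of -0.65, -0.36 and -0.24, beside -0.45 for the ribosomal proteins and -0.00 for all genes. The share of the biogenesis factors was close to that of all genes. In endocardial cells the corresponding medians were -0.23, -0.07 and 0.22. Of 15 regulators of ribosomal protein output, 14 passed the filter in coronary cells, of which 3 were called higher (18.9% of all genes were) and 1 lower (21% of all genes were), so the share called higher was near that of all genes. Ddit4, an inhibitor of mTORC1, had 12.3, 28.0, 73.7 and 320.5 CPM in coronary and 29.9, 38.4, 72.0 and 407 CPM in endocardial cells, the E12 coronary value resting on 3 UMIs. Rheb, the activator of mTORC1, had 136, 189, 339 and 295 CPM in coronary cells.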

How the data were processed

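The authors sequenced 10x Chromium 3′ v2 libraries of sorted cells and deposited, per stage, a matrix of UMI counts per gene and barcode; per the labels they used Cell Ranger 2.2 and the mm10 build. The counts were used as deposited, and E12 barcodes under 452 UMIs were removed because that matrix also held empty droplets. Doublets were not removed. As an alternative, cells were held to the study's upper limits for UMIs, genes and mitochondrial share, without its limit on a doublet score. The members, lists and cell classes were chosen with earlier results of these data known. UMIs were summed per class and library with NumPy 2.4.6 and SciPy 1.17.1. With 1 library per stage no test was run, and shares, CPM and ratios carry exact 95% Clopper-Pearson, Poisson or conditional binomial intervals for counting error only, since cells are not replicates. A call was a CPM ratio of at least 1.5 with at least 50 UMIs in both groups together. The shares of all genes called were not matched to the members by level, so they include genes near the filter with wide counting error. The code was tested on simulated data. Named were the stalk members, Rpsa and paralogue pairs; members with at least 100 UMIs at least 1.5-fold from the median of the members in the same direction in both classes, or in 2 stages between classes; the 3 highest members and the 3 nearest the median; and the 2 leading genes of each other list. Genes named beyond this rule are marked or departed in 1 class. Libraries shared 25 to 60 cell barcodes per pair, against 33 to 48 from chance draws of the barcode list. Alternatives changed the E12 minimum, the cell limits, the genes in the denominator, the scaling, the depth, the class rules, the fold and the filter. Results for some genes are not reported here.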

Additional observations from a re-analysis of the deposited data

Results flagged for a closer look

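The coronary share of ribosomal protein UMIs divided by the endocardial share was 0.774 in the adult (95% interval 0.765 to 0.783), with 78 of 84 members lower in coronary cells, while it was 1.04 at E12 and at E15. Over all genes, the median log2 ratio of that adult comparison was 0.03. At P2 the share ratio was 1.003, and below 1 under 6 of 12 alternatives. With the cells of the artery rule taken out of the coronary class, the adult ratio was 0.841. The difference between stages was not tested, since each stage is 1 library and the adult endocardial class holds 75 cells.

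The E12 matrix also held 155236 barcodes with 1 to 50 UMIs, which are outside all comparisons above. Ribosomal protein genes made up 21.2% (21.1 to 21.3) of their 619013 UMIs and mitochondrially encoded genes 9.14%, against 30.3% and 3.01% in the kept E12 barcodes. The share that free RNA took in the cells was not tested.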

How the results depend on the processing

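Each stage is 1 library, so neither a left-out replicate nor a test could be run, and depth, handling and stage cannot be told apart. No paired analysis was possible because the stages share no more than the number of their only library. The cause of each movement below was not tested. Ratios of shares are given as E15 over E12, P2 over E15 and adult over P2 within a class, or as coronary over endocardial. The direction of every share ratio was the same under all alternatives run, except for 2 ratios. The P2 ratio of the classes (1.003) turned to 0.9997 under the study's cell limits, 0.989 without mitochondrial and hemoglobin UMIs, 0.987 as odds over other genes, 0.99987 with a stricter class rule, 0.977 without cells holding markers of other types and 0.990 in cells of 2000 to 4000 UMIs. The endocardial adult over P2 ratio (0.946) turned to 1.01 under median-of-ratios scaling. In all odds the other genes exclude mitochondrial and hemoglobin genes. The odds therefore overlap with the setting without those UMIs and are not a separate alternative to it.

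Coronary E15 over E12 was 0.927 with an E12 minimum of 1000 UMIs, 0.903 as odds, 0.948 in cells thinned to 500 UMIs, 0.905 under median-of-ratios scaling and 0.917 in cells with no division UMI. Coronary P2 over E15 was 0.544 without mitochondrial and hemoglobin UMIs, 0.453 as odds, 0.546 as a mean over cells, 0.551 thinned, 0.543 without artery cells, 0.542 without cells holding other markers, 0.422 under median of ratios, 0.543 at 2000 to 4000 UMIs, 0.544 without division UMIs and 0.531 with pseudogenes. Coronary adult over P2 was 0.725 under the study's limits, 0.739 without mitochondrial and hemoglobin UMIs, 0.702 as odds, 0.712 over cells, 0.710 thinned, 0.784 without artery cells, 0.718 without other markers, 0.702 without division UMIs and 0.736 with pseudogenes. Endocardial E15 over E12 was 0.930, 0.927, 0.926, 0.895, 0.919, 0.919, 0.908, 0.922, 0.928, 0.964 and 0.919 under the study's limits, the E12 minimum, no mitochondrial or hemoglobin UMIs, odds, mean over cells, thinning, the stricter class, no other markers, median of ratios, the depth window and no division UMIs. Endocardial P2 over E15 was 0.560, 0.571, 0.484, 0.566, 0.571, 0.569, 0.582, 0.465, 0.575 and 0.551 in the same order without the E12 minimum, and 0.550 with pseudogenes. Endocardial adult over P2 was 0.973 under the study's limits and in the depth window, 0.929 as odds, 0.934 in the stricter class and 0.902 without other markers.

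The ratio of the classes at E12 was 1.03 without mitochondrial and hemoglobin UMIs and in the stricter class, 1.01 thinned, 1.14 under median of ratios and 1.08 in the depth window. At E15 it was 1.05 as odds, without other markers and in the depth window, 1.04 thinned, 1.06 in the stricter class and 1.11 under median of ratios. At P2 it was also 1.01 over cells and thinned, 1.02 without artery cells, 1.06 under median of ratios and 1.03 without division UMIs. In the adult it was 0.745 under the study's limits, 0.746 as odds, 0.753 over cells, 0.764 thinned, 0.841 without artery cells, 0.756 under median of ratios and 0.744 in the depth window.

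With a fold of 2, the members called lower from E15 to P2 were 34 in coronary and 30 in endocardial cells, and from P2 to adult 3 and 0. Between the adult classes 1 was then called lower, and between the E12 classes 0 were called higher. Under median of ratios 1 member was called lower in adult endocardial cells, 5 were called higher in E12 coronary cells and 2 were called from E12 to E15 in coronary cells, where 1 was called with no filter. The share of all genes called at these settings is not given here. These counts therefore show only how the calls depend on the setting, and not how the members compare with all genes. The depth window, the cells without division UMIs and the addition of pseudogenes, like the cells of no class, the splits within a library and the sums of copies, were chosen after seeing the data.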
